A study of Mus musculus with 6 samples.

Results

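Tight junctions are the seals that close the cleft between neighbouring cells of a sheet. Their membrane strands are built from claudins and occludin, immunoglobulin-like adhesion proteins of the JAM family sit beside these strands, and a cytoplasmic plaque of ZO and cingulin proteins ties them to actin. Endothelial cells, which line blood and lymph vessels, use claudin-5 as their main claudin, and the closeness of this seal helps to set how much fluid and solute leaves a vessel, in the lung as elsewhere. The 9 genes described here are the transmembrane members Cldn5, Ocln, F11r, Jam2, Jam3 and Esam and the plaque members Tjp1, Cgnl1 and Cgn. They were chosen by symbol, and all 9 were among the 23345 genes of the table and among the 15655 tested, whose mean reached 10 normalized counts.

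The cells were lung endothelial cells of C57BL/6JOlaHsd mice kept for 12 weeks on a high-fat diet (HFD; mice 2, 4 and 5) or on a normal diet (ND; mice 1, 3 and 4). Cells from collagenase-digested lungs were depleted with an antibody to CD16/CD32, selected with an antibody to the endothelial protein ICAM-2, and plated on collagen I before RNA was taken, so all libraries come from cells that had been in culture. Each library was made from 500 cells of a separately numbered mouse, the digit 4 names different mice in the 2 diets, and the sources used here give neither age nor sex. The comparison asks what HFD feeding does to gene transcripts of these cells.

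Depth was 18.8 to 27.9 M reads in HFD libraries and 13.8 to 17.2 M reads in ND libraries, so every HFD library was deeper than every ND library. The 13 pan-endothelial markers summed to 163527 to 183006 normalized counts in HFD and 139391 to 166898 in ND, and none was at 0 in any library. In RNA of mixed cells, fewer cells of a type and less RNA per cell cannot be told apart. The 19 lung epithelial markers analysed summed to 5362 to 20839 normalized counts in HFD, and to 107520 in ND 3 against 4782 in ND 1 and 9216 in ND 4. The 8 lymphatic markers summed to 4866 to 15990 in HFD and 15468 to 34299 in ND. Platelet markers, of interest because platelets also carry JAM proteins and ESAM, summed to 195 to 5224 normalized counts in HFD and 252 to 1314 in ND over 4 genes. White blood cell markers summed to 23.8 to 159 in HFD and 172 to 218 in ND over 5 genes. Mural cell markers summed to 716 to 1250 in HFD and 1131 to 5962 in ND, with 8 of 11 lower in HFD and a median log2 fold change of -0.76. Fibroblast and mesothelial markers summed to 110 to 3051 in HFD and 229 to 5713 in ND, with a median of -1.22 over 6 tested genes. Of 8 arterial markers, 6 were higher in HFD, with a median of 0.52. The diets did not overlap for 2 arterial markers that were higher and 2 that were lower, against 8.12% and 5.93% of all tested genes. Of 5 venous markers, 4 were higher, with a median of 0.16, and of 10 capillary markers, 4 were higher, with a median of -0.04.

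Cells of HFD mice held more transcript of the membrane adhesion genes F11r, Jam2, Ocln and Esam than cells of ND mice, in each of the 3 HFD libraries against each of the 3 ND libraries. They held less of the plaque genes Tjp1 and Cgnl1, again in each library against each. Mean normalized counts in HFD were 2.06 times those in ND for Jam2, 1.90 times for F11r, 1.57 times for Ocln and 1.34 times for Esam, and 0.782 times for Tjp1 and 0.252 times for Cgnl1. Cldn5 was 1.47 times as high in HFD on average, with diets that overlapped, and Jam3 and Cgn overlapped widely. None of these differences passed limma's test corrected over all genes.

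Each gene was tested with limma on log2(normalized count + 1), a scale that understates the change of low genes, and p was adjusted over the 15655 genes by the Benjamini-Hochberg method. At an adjusted p of 0.05, 0 of the 9 genes passed, against 0% of all tested genes, and the members' adjusted p values ran from 0.497 to 0.926. At an unadjusted p of 0.05 there were 4 of the 9, namely Jam2, F11r and Ocln higher and Cgnl1 lower in HFD, against 7.92% of all tested genes, 5.56% higher and 2.36% lower. The diets did not overlap for 6 of the 9 genes, 4 higher and 2 lower in HFD, against 14.1% of all tested genes, 8.12% higher and 5.93% lower. Over the 9 genes the log2 fold changes had a median of 0.42, beside 0.05 over all tested genes. On whole reads, edgeR's quasi-likelihood test called 0 of the 9 genes with 4 at an unadjusted p of 0.05, against 9.34% of all tested genes. Limma-voom called 0 with 5 at an unadjusted p of 0.05, against 8.37%. DESeq2 called 1, Cgnl1, against 1.76% of all tested genes, or 276. The genes at an unadjusted p of 0.05 over the whole table were 870 higher and 370 lower in HFD. With equal column totals they were 709 and 538, with quantile normalization 722 and 556, with edgeR 847 and 615, with DESeq2 952 and 678, and relative to the pan-endothelial markers 569 and 551.

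**Figure D1:**
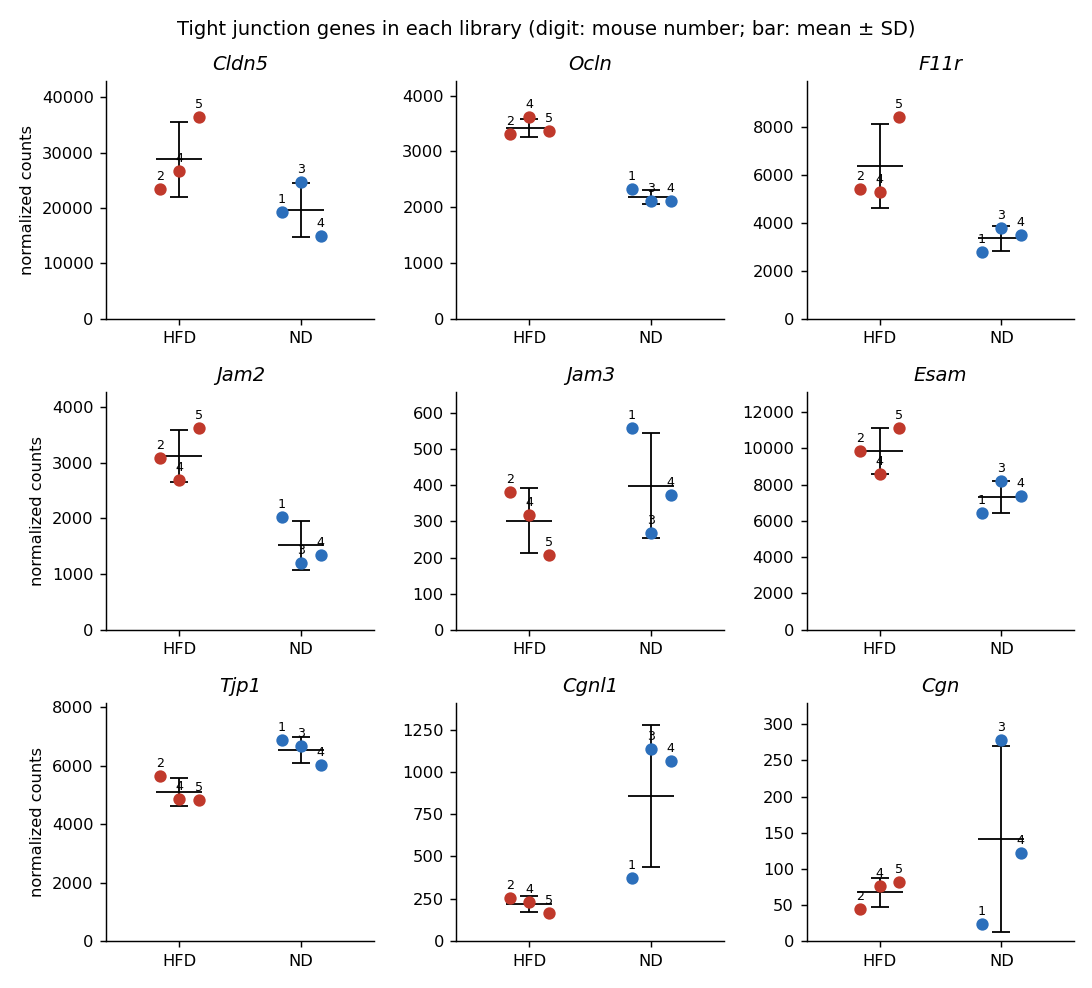
Normalized counts of the 9 tight junction genes in each library, with HFD on the left and ND on the right of each panel. Points are mice, labelled with their number, and bars give the mean and SD of 3 libraries. F11r, Jam2, Ocln and Esam lay higher in each HFD library, from 1.34 to 2.06 times on average, while Tjp1 and Cgnl1 lay lower.

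All 9 genes are annotated as protein coding in GENCODE M21 on the GRCm38 build. Cldn5 (ENSMUSG00000041378.2) lies on chromosome 16 from 18776847 to 18778262 on the plus strand and is a single exon of 1416 bases. Jam2 (ENSMUSG00000053062.16) lies on the same chromosome from 84774123 to 84825928, on the plus strand, and F11r (ENSMUSG00000038235.4) on chromosome 1 from 171437535 to 171464603, on the plus strand. Ocln (ENSMUSG00000021638.12) lies on chromosome 13 from 100496507 to 100552718 and Tjp1 (ENSMUSG00000030516.14) on chromosome 7 from 65296165 to 65527781, both on the minus strand. Chromosome 9 carries Esam (ENSMUSG00000001946.14, from 37528078 to 37538319, plus strand), Jam3 (ENSMUSG00000031990.15, from 27097384 to 27155421, minus strand) and Cgnl1 (ENSMUSG00000032232.14, from 71626509 to 71771602, minus strand). Cgn (ENSMUSG00000068876.14) lies on chromosome 3 from 94760069 to 94786492 on the minus strand. Of the 9 genes, 8 share no exonic base with another annotated gene. The exception is Jam3, where 36.2% of the exonic bases are also exons of Gm48796 on the opposite strand, and Gm48796 itself had 0 to 11.5 normalized counts. Stretches of 50 bases shared with transcripts of other genes made up 29.3% of the distinct stretches of Jam3, all with Gm48796, 17.2% of those of Cgn and 0.868% of those of F11r, so reads there may be split or dropped, while the other 6 genes shared 0%.

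RefSeq promoters on the GRCm38.p6 build, running from 250 bases before to 50 after the annotated start, were matched for 6 of the 9 genes, in 7 windows. They are shown for F11r and Ocln, higher in HFD, and for Tjp1 and Cgnl1, lower in HFD, because these genes of opposite direction share a feature of their starts. The Tjp1 window lies inside the GENCODE M21 span of Tjp1, away from its upstream end at 65527781. Capitals mark the GC box, CCGCCC or its reverse complement GGGCGG, a sequence that factors of the SP and KLF families are known to bind.
F11r, chr1:171437311-171437610, plus strand: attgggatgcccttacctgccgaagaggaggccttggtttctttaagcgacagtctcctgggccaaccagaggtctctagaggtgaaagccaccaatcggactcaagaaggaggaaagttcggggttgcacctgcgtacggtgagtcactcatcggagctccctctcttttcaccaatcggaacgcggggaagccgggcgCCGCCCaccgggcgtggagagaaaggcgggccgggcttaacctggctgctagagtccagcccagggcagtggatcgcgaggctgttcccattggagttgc
Ocln, chr13:100552669-100552968, minus strand: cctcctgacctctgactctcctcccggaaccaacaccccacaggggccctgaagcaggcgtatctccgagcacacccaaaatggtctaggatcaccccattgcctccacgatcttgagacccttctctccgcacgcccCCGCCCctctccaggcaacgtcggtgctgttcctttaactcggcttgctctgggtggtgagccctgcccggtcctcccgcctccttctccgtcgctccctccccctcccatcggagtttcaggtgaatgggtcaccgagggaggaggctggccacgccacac
Tjp1, chr7:65371195-65371494, minus strand: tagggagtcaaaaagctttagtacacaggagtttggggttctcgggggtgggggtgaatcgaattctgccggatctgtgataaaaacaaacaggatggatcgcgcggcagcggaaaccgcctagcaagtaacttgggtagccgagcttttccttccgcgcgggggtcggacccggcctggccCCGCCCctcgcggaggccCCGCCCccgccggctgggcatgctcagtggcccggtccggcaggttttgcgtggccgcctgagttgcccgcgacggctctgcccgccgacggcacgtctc
Cgnl1, chr9:71771553-71771852, minus strand: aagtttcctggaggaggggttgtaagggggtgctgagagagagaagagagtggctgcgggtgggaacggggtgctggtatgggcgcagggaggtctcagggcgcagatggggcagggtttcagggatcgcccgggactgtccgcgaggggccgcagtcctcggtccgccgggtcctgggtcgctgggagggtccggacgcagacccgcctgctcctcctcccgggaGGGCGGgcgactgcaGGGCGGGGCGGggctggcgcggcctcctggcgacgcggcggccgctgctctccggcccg
On either strand a GC box was present in 7 of the 7 windows, against 35.7% of all 32851 RefSeq promoter windows. The GC content of the 7 windows was 58.3% to 73.3%, against a median of 52.7% over all windows. The motif was thus present in genes that were higher and in genes that were lower in HFD. The CCAAT box, CCAAT or ATTGG, was in 4 of the 7 windows, those of Cgn, Cldn5 and F11r and 1 of Ocln, against 37.4% of all windows. The Ocln window with this match starts at 100552449 and is not the one shown. The ETS core, CCGGAA or TTCCGG, was in 1 window, of Ocln, against 14.9%, and the forkhead sequence, GTAAACA or TGTTTAC, in 0 of the 7, against 3.65%. Matches of different motifs overlapped 0 times in these windows. The factors themselves were not measured.

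Cldn5 encodes claudin-5, which seals endothelial junctions against small molecules. It had 23348, 26687 and 36394 normalized counts in HFD 2, HFD 4 and HFD 5, against 19313, 24711 and 14933 in ND 1, ND 3 and ND 4. HFD 5 was the highest and ND 4 the lowest, but ND 3 lay above HFD 2, so the diets overlapped. The mean was 28809.7 ± 6777 in HFD and 19652 ± 4897 in ND (SD, n = 3 each), a log2 fold change of 0.56 ± 0.24 (SE) with a limma adjusted p of 0.635. The 95% interval of the log2 fold change ran from -0.01 to 1.12. Without HFD 5 the log2 fold change was 0.38, without ND 4 it was 0.37, and without ND 3 it was 0.74.

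Counted per kb of exon, Cldn5 made up 97.3%, 97.2% and 96.8% of claudin transcript in HFD 2, HFD 4 and HFD 5, against 95.8%, 90.5% and 90.2% in ND 1, ND 3 and ND 4. The HFD shares lay above the ND shares in every library. The mean share was 97.1 ± 0.284% in HFD and 92.2 ± 3.13% in ND (SD, n = 3 each), a difference of 4.93 percentage points over a family of 10 claudins. An exact two-sided permutation test gave p = 0.1, the smallest that 3 against 3 allows, and 0.233 after adjustment over the 7 shares tested. The rest was mostly Cldn18, the claudin of alveolar epithelium, which had 1789, 2107 and 2929 normalized counts in the HFD libraries and 2284, 7914 and 4412 in ND 1, ND 3 and ND 4. Cldn18 and the summed epithelial markers were both highest in ND 3, and without ND 3 the difference in the Cldn5 share was 4.09 points. The part of epithelial RNA in this share was not tested.

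Ocln encodes occludin, a membrane protein that joins the claudin strands. It had 3305, 3614 and 3364 normalized counts in HFD 2, HFD 4 and HFD 5, against 2324, 2105 and 2116 in ND 1, ND 3 and ND 4. The lowest HFD library was 1.42 times the highest ND library, the widest such gap among the genes higher in HFD. Ocln also varied least between mice, with a coefficient of variation of 4.78% in HFD and 5.67% in ND. The mean was 3428 ± 164 in HFD and 2182 ± 124 in ND (SD, n = 3 each), a log2 fold change of 0.65 ± 0.21 (SE) with a limma adjusted p of 0.561. Occludin is also made by epithelium. Ocln was 2105 normalized counts in ND 3, where epithelial markers were highest, close to the 2116 of ND 4, and the part of epithelial RNA in the Ocln values was not tested.

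The adhesion proteins of the immunoglobulin family come next. F11r encodes JAM-A, which binds itself across the cleft between cells and helps to recruit polarity proteins. It had 5391, 5288 and 8389 normalized counts in HFD 2, HFD 4 and HFD 5, against 2767, 3792 and 3466 in ND 1, ND 3 and ND 4. HFD 5 stood above the rest, and the lowest HFD library was 1.39 times the highest ND library. The mean was 6356 ± 1761 in HFD and 3342 ± 524 in ND (SD, n = 3 each), a log2 fold change of 0.91 ± 0.26 (SE) with a limma adjusted p of 0.515. Without HFD 5 the log2 fold change was 0.69. The summed epithelial markers were 5362, 7463 and 20839 in HFD 2, HFD 4 and HFD 5. In ND 1, ND 3 and ND 4 they were 4782, 107520 and 9216. F11r and these markers were both highest in HFD 5 within HFD and in ND 3 within ND. For F11r, ND 3 lay below every HFD library. The part of epithelial RNA in the F11r values was not tested.

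Jam2 encodes JAM-B, a partner of JAM-C found largely on endothelium. It had 3084, 2683 and 3619 normalized counts in HFD 2, HFD 4 and HFD 5, against 2023, 1194 and 1336 in ND 1, ND 3 and ND 4. Every HFD library lay above ND 1, the highest ND library, by a factor of at least 1.33. The mean was 3129 ± 469.5 in HFD and 1518 ± 443 in ND (SD, n = 3 each), a log2 fold change of 1.07 ± 0.30 (SE) with a limma adjusted p of 0.497, the smallest p among the 9 genes.

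Jam3 encodes JAM-C, the partner of JAM-B, which is also present on platelets. It had 383, 319 and 206 normalized counts in HFD 2, HFD 4 and HFD 5, against 557, 268 and 372 in ND 1, ND 3 and ND 4. The diets overlapped, with the lowest library in HFD and the highest in ND. The log2 fold change was -0.38 ± 0.48 (SE) with a limma adjusted p of 0.879, and its 95% interval from -1.52 to 0.76 held changes in either direction. The partners Jam2 and Jam3 therefore had log2 fold changes of opposite sign, but the difference between them was not tested.

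Esam encodes an adhesion molecule of endothelial junctions and platelets. It had 9850.0, 8561 and 11101 normalized counts in HFD 2, HFD 4 and HFD 5, against 6421, 8208 and 7375 in ND 1, ND 3 and ND 4. The gap was narrow, since HFD 4 lay 1.04 times as high as ND 3. The mean was 9837 ± 1269.8 in HFD and 7335 ± 894 in ND (SD, n = 3 each), a log2 fold change of 0.42 ± 0.19 (SE) with a limma adjusted p of 0.639. With equal column totals, with quantile normalization and relative to the pan-endothelial markers, the diets overlapped for Esam, at log2 fold changes of 0.31, 0.25 and 0.25.

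**Figure D2:**
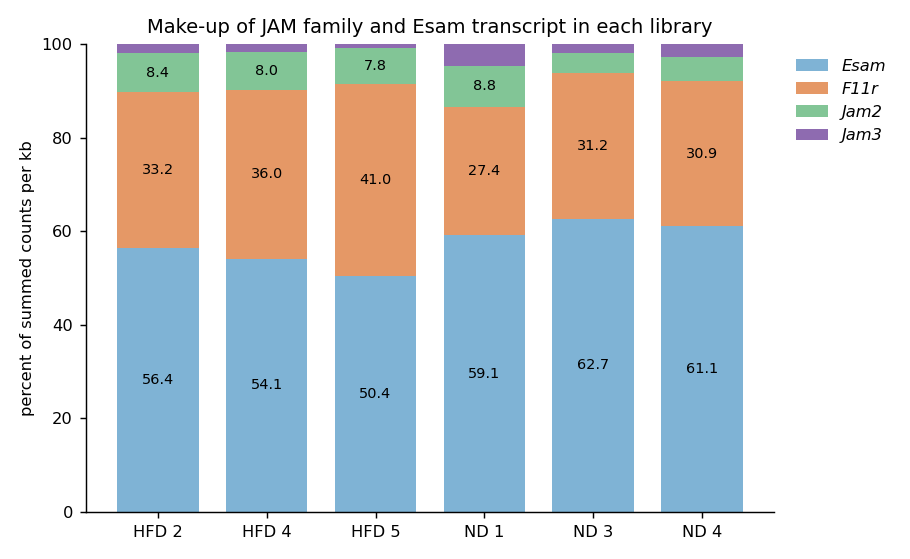
Share of each gene in the summed normalized counts per kb of exon of Esam, F11r, Jam2 and Jam3, in percent, with the 3 HFD libraries left of the 3 ND libraries. The F11r segment takes 33.2% to 41.0% in HFD and 27.4% to 31.2% in ND, and the Esam segment is correspondingly smaller in HFD.

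Within this family the F11r share was 33.2%, 36.0% and 41.0% in HFD 2, HFD 4 and HFD 5, against 27.4%, 31.2% and 30.9% in ND 1, ND 3 and ND 4. The Esam share was 56.4%, 54.1% and 50.4% in the HFD libraries, against 59.1%, 62.7% and 61.1% in the ND libraries. Neither share overlapped between the diets, with F11r higher and Esam lower in HFD. Because these genes make up most of the family, their shares move against each other and are largely 1 observation. The mean difference was 6.91 percentage points for F11r and -7.31 for Esam, each with p = 0.1 by the exact two-sided permutation test and 0.233 after adjustment over the 7 shares. A share within a library does not depend on how libraries are scaled. The Jam2 share, 8.07 ± 0.294% in HFD and 6.14 ± 2.38% in ND, overlapped between the diets (exact permutation p = 0.4), and so did the Jam3 share, 1.54 ± 0.610% in HFD and 3.06 ± 1.41% in ND (SD, n = 3 each, exact permutation p = 0.2). The Jam2 share was highest in ND 1, at 8.84%. Its difference of 1.94 points was 3.29 without ND 1, 1.03 without ND 3 and 1.49 without ND 4. The Jam3 share difference of -1.53 points was -0.762 without ND 1.

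Of the 3 plaque genes, Tjp1 and Cgnl1 were lower in HFD without overlap and Cgn overlapped widely. Tjp1 encodes ZO-1, the scaffold that binds claudins, occludin and JAM proteins through its PDZ and neighbouring domains. It had 5666, 4846 and 4822 normalized counts in HFD 2, HFD 4 and HFD 5, against 6899.5, 6666 and 6037 in ND 1, ND 3 and ND 4. The highest HFD library lay just under the lowest ND library, which was 1.07 times as high. The mean was 5111 ± 480.5 in HFD and 6534 ± 446 in ND (SD, n = 3 each), a log2 fold change of -0.36 ± 0.19 (SE) with a limma adjusted p of 0.662.

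Cgnl1 encodes paracingulin, a plaque protein of tight and adherens junctions. It had 255, 229.5 and 164 normalized counts in HFD 2, HFD 4 and HFD 5, against 373, 1134 and 1063 in ND 1, ND 3 and ND 4. All HFD libraries were low and close together, while the ND libraries spread from 373 upward, with ND 1 nearest to HFD at 1.46 times HFD 2. The mean was 216 ± 47.0 in HFD and 857 ± 420.4 in ND (SD, n = 3 each), a log2 fold change of -1.84 ± 0.55 (SE) with a limma adjusted p of 0.522. DESeq2 on whole reads gave a log2 fold change of -2.06 and an adjusted p of 0.0176. Leaving out ND 1 gave a log2 fold change of -2.36, leaving out ND 3 one of -1.56 and leaving out ND 4 one of -1.61. Beside it, 7 of 7 tested lymphatic markers were lower in HFD, with a median log2 fold change of -1.89. Of these, 3, namely Lyve1, Pdpn and Maf, did not overlap between the diets, against 5.93% of all tested genes in that direction. Prox1, Flt4, Reln and Ccl21a overlapped. The 8 lymphatic markers summed to 25241, 15468 and 34299 normalized counts in ND 1, ND 3 and ND 4, lowest in ND 3. Of these counts the chemokine gene Ccl21a gave 15178, 4358 and 22638, and Lyve1 gave 7435, 8014 and 7202. Pdpn, which encodes podoplanin, had 48.6, 160.3 and 138 normalized counts in HFD 2, HFD 4 and HFD 5, against 629, 1475 and 1187 in ND 1, ND 3 and ND 4. Within ND, Pdpn had the order of Cgnl1, lowest in ND 1 and highest in ND 3. The other tested lymphatic markers, Prox1, Flt4, Maf, Reln, Ccl21a and Lyve1, did not have that order. The summed lung epithelial markers did have it within ND, at 4782, 107520 and 9216 in ND 1, ND 3 and ND 4. In HFD they were 5362, 7463 and 20839 in HFD 2, HFD 4 and HFD 5, the reverse of the Cgnl1 order. The part of lymphatic cells or of epithelial RNA in the Cgnl1 difference was not tested.

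Cgn encodes cingulin, a plaque protein that is abundant in epithelium. It had 44.7, 76.5 and 81.4 normalized counts in HFD 2, HFD 4 and HFD 5, against 23.6, 279 and 122 in ND 1, ND 3 and ND 4, and rested on as few as 20 reads in ND 1. The ND libraries lay on both sides of all HFD libraries. The log2 fold change was -0.51 ± 0.97 (SE) with a limma adjusted p of 0.926, and it was 0.27 without ND 3 and -1.49 without ND 1. ND 3 held both the most Cgn and the most epithelial marker transcript, including 70918 normalized counts of the surfactant gene Sftpc, and the part of epithelial RNA in the Cgn values was not tested. The Cgnl1 share of cingulin family transcript per kb was 70.6 ± 10.4% in HFD and 85.0 ± 8.49% in ND (SD, n = 3 each), with overlapping diets and an exact permutation p of 0.2. The difference of -14.4 points was -9.44 without HFD 5 and -19.8 without HFD 2.

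**Figure D3:**
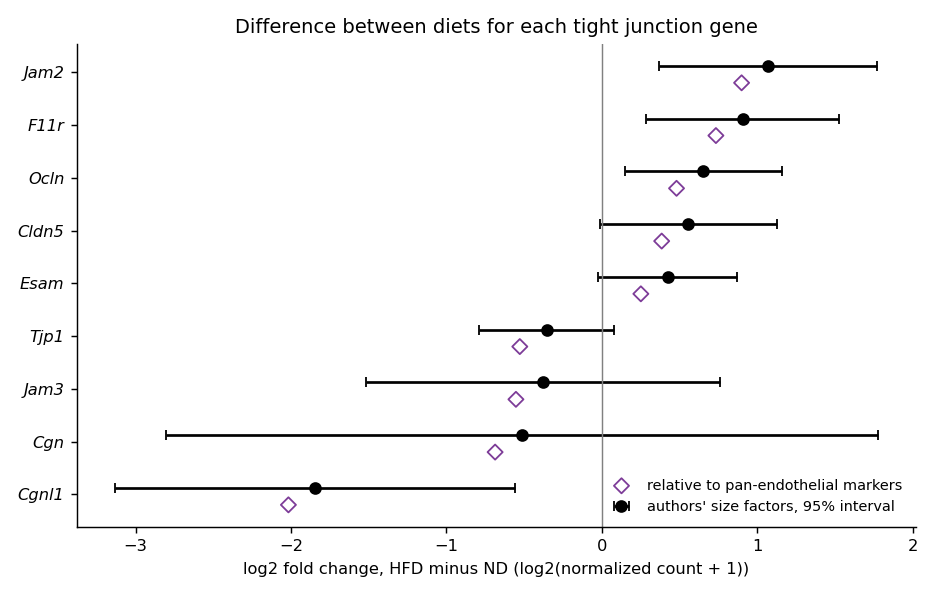
Log2 fold change of each gene, HFD minus ND, on the log2(normalized count + 1) scale. Filled circles with 95% intervals use the authors' size factors and open diamonds are values relative to the mean of 13 pan-endothelial markers, with Jam2 at 1.07 and 0.90 and Cgnl1 at -1.84 and -2.02 at the ends of the range.

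The mean log2 level of the 13 pan-endothelial markers was 13.19 ± 0.05 in HFD and 13.02 ± 0.15 in ND (SD, n = 3 each), a difference of 0.17, so these markers were themselves somewhat higher in HFD. Expressed relative to that level in each library, the log2 fold changes were 0.90 for Jam2, 0.73 for F11r, 0.48 for Ocln, 0.38 for Cldn5 and 0.25 for Esam. They were -0.53 for Tjp1, -0.55 for Jam3, -0.69 for Cgn and -2.02 for Cgnl1. This scaling moved the median over all tested genes to -0.12, and 5 of the 9 genes did not overlap between the diets, namely Jam2, F11r, Ocln, Tjp1 and Cgnl1, against 14.2% of all tested genes. All 9 genes kept their sign under each other scaling tried.

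**Figure D4:**
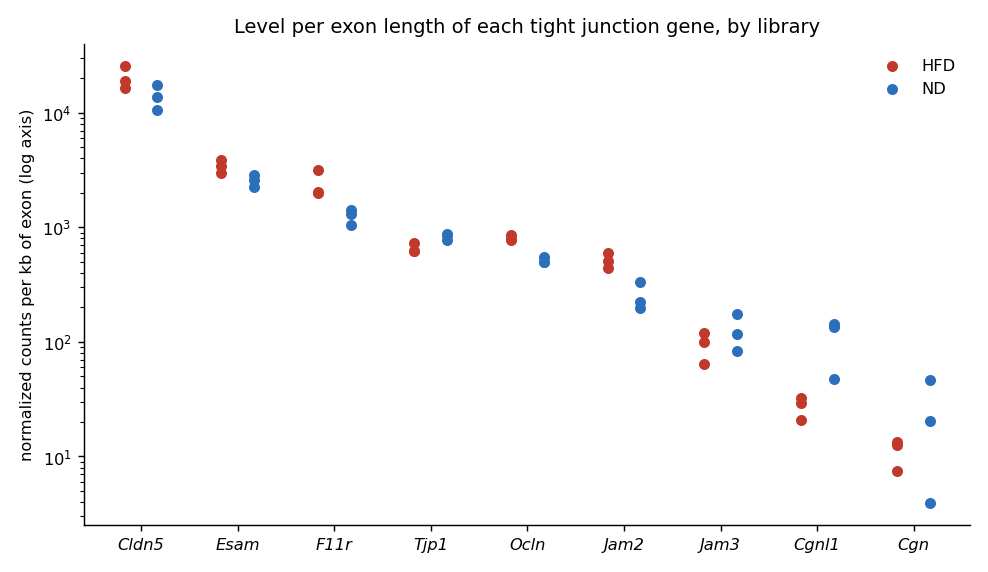
Normalized counts per kb of exon of each gene in each library, on a log axis, with HFD left of ND for each gene. Cldn5 is the highest in every library, and Ocln lies above Tjp1 in the HFD libraries but below it in the ND libraries.

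Per kb of exon, the levels of the 9 genes were ordered as follows. In HFD, Cldn5 was highest at 20346 ± 4786 normalized counts per kb, then Esam at 3431 ± 443, F11r at 2387 ± 661, Ocln at 812 ± 38.8 and Tjp1 at 654 ± 61.5 (SD, n = 3). Jam2 followed at 518 ± 77.7, Jam3 at 94.5 ± 28.0, Cgnl1 at 27.6 ± 5.99 and Cgn at 11.2 ± 3.31. In ND, Cldn5 was highest at 13879 ± 3459, then Esam at 2558 ± 312, F11r at 1255 ± 197, Tjp1 at 837 ± 57.1 and Ocln at 517 ± 29.3 (SD, n = 3). Jam2 followed at 251 ± 73.3, Jam3 at 125 ± 45.8, Cgnl1 at 109 ± 53.6 and Cgn at 23.5 ± 21.4. Neighbours in this order had ranges that overlapped in 2 places, Esam and F11r in HFD and Jam3 and Cgnl1 in ND.

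The diets differed in the order of 1 neighbouring pair, Ocln and Tjp1. The ratio of Ocln to Tjp1 per kb was 1.08, 1.38 and 1.29 in HFD 2, HFD 4 and HFD 5, against 0.623, 0.584 and 0.648 in ND 1, ND 3 and ND 4. The ratio was above 1 in each HFD library and below 1 in each ND library, with a mean of 1.25 ± 0.154 in HFD and 0.619 ± 0.0323 in ND (SD, n = 3 each). The exact two-sided permutation test gave p = 0.1, the smallest possible, for a pair chosen after its values were seen. Since Ocln was higher and Tjp1 lower in HFD, each without overlap, their ratio had to separate the diets. That p was therefore fixed in advance and adds nothing to the results of the 2 genes. The order of the pair was the same when length was taken from the longest transcript.

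**Figure D5:**
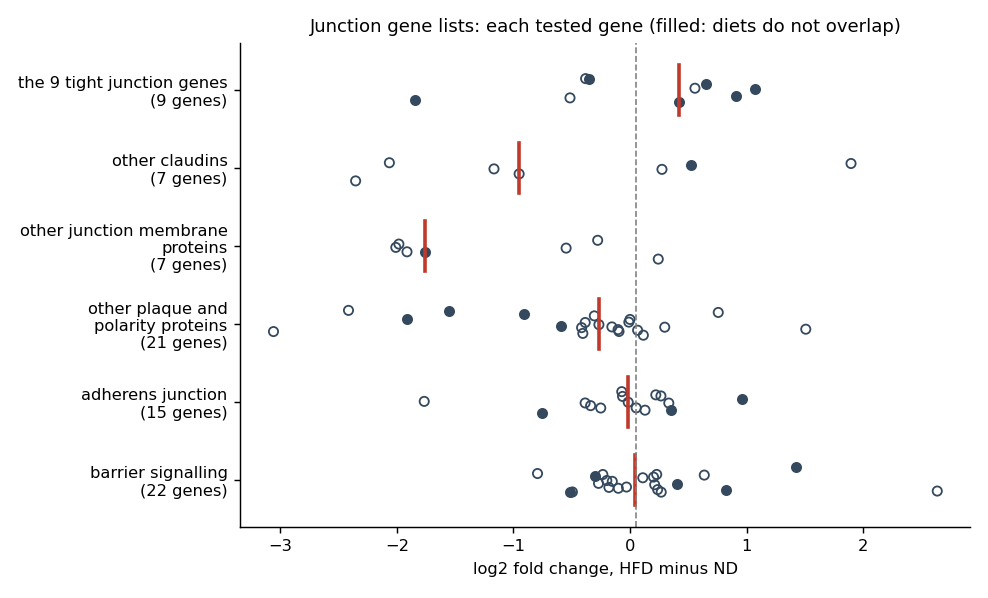
Log2 fold change, HFD minus ND, of each tested gene in 6 lists of junction genes. Filled points are genes whose diets do not overlap, red bars are list medians and the dashed line is the median of all tested genes, 0.05. The 9 tight junction genes have a median of 0.42, and other plaque and polarity proteins one of -0.27.

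Other junction genes were read in 5 further lists, and 0 genes of them passed limma at an adjusted p of 0.05 over all genes. Of 25 claudins and claudin-domain genes listed beside Cldn5, 7 were tested. An unadjusted p of 0.05 was passed by 0 in either direction, against 7.92% of all tested genes. The median log2 fold change was -0.95, beside 0.05 over all tested genes, and it was the value of Cldn18 itself. Between libraries, Cldn11, Cldn15 and Cldn19 ranged from 0.805 to 145, 0 to 83.5 and 0 to 109 normalized counts. Cldn18 had a log2 fold change of -0.95 ± 0.46 (SE), and Cldnd1, a claudin-domain protein, had 0.53 ± 0.27 (SE) at 1987 ± 289.9 normalized counts in HFD and 1379 ± 196 in ND (SD, n = 3 each), without overlap between the diets.

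Among 7 tested genes for other membrane proteins of the junction, 6 were lower and 1 higher in HFD, with a median log2 fold change of -1.76. Of these, 1 was past an unadjusted p of 0.05, Cxadr, the coxsackie and adenovirus receptor, which was lower, against 2.36% of all tested genes in that direction. Cxadr had 50.5, 151 and 300.3 normalized counts in HFD 2, HFD 4 and HFD 5, against 317, 703 and 407 in ND 1, ND 3 and ND 4. The diets did not overlap, at a log2 fold change of -1.76 ± 0.74 (SE) with a limma adjusted p of 0.621. Crb3, a polarity protein of epithelia, and Igsf5, also called JAM4, had log2 fold changes of -2.01 ± 1.48 and -1.98 ± 1.87 (SE) with overlapping diets. Crb3 had 1.94, 56.4 and 161 normalized counts in HFD 2, HFD 4 and HFD 5, against 57.9, 153 and 196 in ND 1, ND 3 and ND 4. Igsf5 had 314, 1.61 and 467 in the HFD libraries, against 222, 390 and 271 in the ND libraries. Both log2 fold changes thus leaned on the lowest HFD library. Marveld2 and Lsr, also in this list, ranged between libraries from 0 to 208 and from 0 to 65.2 normalized counts. The list median of -1.76 was the value of Cxadr itself.

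Among 21 tested genes for other plaque and polarity proteins, 16 were lower and 5 higher in HFD, with a median log2 fold change of -0.27. The diets did not overlap for 4, all lower in HFD, against 5.93% of all tested genes in that direction. An unadjusted p of 0.05 was passed by 2 genes of the list, both lower, against 2.36% of all tested genes in that direction. Prkci, the atypical protein kinase C of the PAR polarity complex, had 460.3, 609 and 302 normalized counts in HFD 2, HFD 4 and HFD 5, against 744, 1444 and 1984 in ND 1, ND 3 and ND 4. Every HFD library thus lay under every ND library, at a log2 fold change of -1.55 ± 0.48 (SE) with a limma adjusted p of 0.529. Mpp5, which encodes the scaffold PALS1 of the Crumbs polarity complex, had a mean of 913 ± 212 in HFD and 1772 ± 708 in ND (SD, n = 3 each), a log2 fold change of -0.91 ± 0.39 (SE) with a limma adjusted p of 0.626. The angiomotin family scaffolds Amotl2 and Amotl1, which had the highest levels of the list, had log2 fold changes of -0.42 ± 0.46 and -0.01 ± 0.30 (SE) with overlapping diets.

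Among 15 tested genes of the adherens junction, which holds endothelial cells together beside the tight junction, 7 were higher and 8 lower, and their log2 fold changes had a median of -0.02. An unadjusted p of 0.05 was passed by 2 that were higher and 1 that was lower in HFD, against 5.56% and 2.36% of all tested genes. Ctnna1, which encodes α-catenin and links cadherins to actin, had 15994, 16045 and 17530 normalized counts in HFD 2, HFD 4 and HFD 5, against 8599, 9446 and 7496 in ND 1, ND 3 and ND 4. The diets lay far apart, at a log2 fold change of 0.96 ± 0.16 (SE) with an unadjusted p of 0.000501 and a limma adjusted p of 0.305. Nectin3, an adhesion receptor, was 2032 ± 616 in HFD and 3344 ± 367 in ND (SD, n = 3 each), without overlap. Pecam1, an adhesion receptor of endothelial contacts, was 24481 ± 3056 in HFD and 19099 ± 1471 in ND (SD, n = 3 each), without overlap, at a log2 fold change of 0.35 ± 0.15 (SE). Ptprb, the vascular phosphatase VE-PTP, had 25654 ± 1648 in HFD and 26025 ± 3171 in ND (SD, n = 3 each), a log2 fold change of -0.02 ± 0.14 (SE).

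Among 22 tested genes of endothelial barrier signalling, 11 were higher and 11 lower, and their log2 fold changes had a median of 0.04. An unadjusted p of 0.05 was passed by 3 that were higher and 0 that were lower in HFD, against 5.56% and 2.36% of all tested genes. The diets did not overlap for 3 that were higher and for 2 that were lower, Rock1 and F2r, against 8.12% and 5.93% of all tested genes. Ccm2, a partner of KRIT1 in the complex lost in cerebral cavernous malformation, had 465, 306 and 519 normalized counts in HFD 2, HFD 4 and HFD 5, against 163, 158 and 146 in ND 1, ND 3 and ND 4. Its diets did not overlap, at a log2 fold change of 1.43 ± 0.45 (SE) with a limma adjusted p of 0.529. Plcg1, a phospholipase downstream of VEGF receptors, had a log2 fold change of 0.83 ± 0.32 (SE) without overlap. Cdc42, a small GTPase, and S1pr1, the main sphingosine 1-phosphate receptor of endothelium, had log2 fold changes of 0.20 ± 0.20 and 0.11 ± 0.16 (SE) with overlapping diets.

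Genes with the pattern most like that of Cldn5 and Jam2 were sought among 5507 genes averaging 500 normalized counts or more, by the root mean square difference of centred log2 values over the 6 libraries. For Cldn5 these were Cct7, a chaperonin subunit, at 0.088, Polr3gl, an RNA polymerase subunit, at 0.096, and Tmem204, a membrane protein of endothelium, at 0.105 log2 units. Cldn5 itself varied by 0.397 about its own mean on that measure. For Jam2 they were Chmp3, a subunit of the membrane-scission machinery ESCRT-III, at 0.131, Zfp511, a zinc finger protein, at 0.133, and Fam118b at 0.152, where Jam2 varied by 0.596. With 6 libraries and so many candidates, close matches are a description of these libraries.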

How the data were processed

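Libraries were made from 500 cells per mouse by oligo(dT) priming, template switching and PCR, per the labels' protocols, which mention no molecular identifiers. Per the submitters' processing notes, the tools were TopHat2 2.0.10 and Bowtie 1.0.0, HTSeq 0.6.1, DESeq2, SAMtools 0.1.19, FastQC 0.11.7 and cutadapt, on GRCm38, with no role or order given. Which annotation and strand setting they used is not given in the sources used here. The authors deposited a normalized signal, whose values are read counts per gene over the size factor of the library. All values were whole multiples of the value of 1 read (100% within 1e-06), and on these reads edgeR called 0 genes, limma-voom 0 and DESeq2 276. Column names gave diet letter and mouse number, and 0 columns stayed unmatched. No library was a copy of another (chi-square over its degrees of freedom 96.2 to 231 for the pairs), so each counted as 1 replicate. Because amplified reads are not independent molecules, read numbers bound counting error only.

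The diets were compared two-sided (HFD minus ND) in R 4.3.3 by limma 3.58.1 with an intensity trend, no covariates and a pseudocount of 1, over genes averaging 10 normalized counts or more. Intervals are at 95%. Shares within families used normalized counts per kb of merged GENCODE M21 exons and an exact permutation test. Of the 7 shares tested, 1 is not reported here. Alternatives were pseudocounts of 0.5 and 5, minimum means of 1 and 50 or no filter, TMM scaling, equal totals, quantile normalization, sample quality weights, edgeR 4.0.16, DESeq2 1.42.0, limma-voom, each library left out, and, chosen after seeing the data, scaling to the pan-endothelial markers. The count of genes without overlap between the diets was also compared across scalings after seeing the data. The limma, edgeR and DESeq2 fits were tested on simulated data.

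The members and lists were chosen with earlier results of these data known. Named beside the 9 members are, from each further list, the 2 tested genes of smallest p and the 2 of highest mean level, since none passed. Sftpc, the lymphatic markers named, Rock1 and F2r were named after their values were seen. Nothing in the labels gives a batch.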

Additional observations from a re-analysis of the deposited data

How the results depend on the processing

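Across 19 alternative settings, 8 of the 9 genes kept the sign of their log2 fold change in all 19, and Cgn in 18. The exception was Cgn without ND 3, at 0.27, in a range that began at -1.49 without ND 1. The ranges over settings were 0.90 to 1.30 for Jam2, 0.69 to 1.02 for F11r, 0.48 to 0.70 for Ocln, 0.37 to 0.74 for Cldn5, 0.25 to 0.52 for Esam, -0.53 to -0.32 for Tjp1, -0.63 to -0.11 for Jam3 and -2.36 to -1.56 for Cgnl1. DESeq2 on whole reads called 276 genes over the whole table, against 0 with limma, and 1 of the 9 genes, Cgnl1. The number of the 9 genes without overlap between the diets was 5 or 6 under the scalings where it was counted, with 14.1% to 14.2% of all genes. It was 6 or 7 with a library left out, with 21.0% to 27.4% of all genes. Not dividing by length put the difference in the Cldn5 share of claudin transcript at 12.1 percentage points and in the Jam2 share at 3.74, where longer genes count for more by construction. Leaving out libraries moved the Jam3 share difference between -2.14 and -0.762 percentage points. With equal column totals the median over all tested genes was -0.06 in place of 0.05. No paired analysis was possible because the diets share only 1 mouse number, 4, which names different mice. With 3 mice a diet, exact permutation tests cannot go below 0.1, and Cgn, with as few as 20 reads, is the gene for which depth limits precision most.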
